A study of Mus musculus with 10 samples.

Results

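The cathepsins and cystatin C were followed here in the pressure-overloaded mouse heart through 10 genes: Ctsa, Ctsb, Ctsc, Ctsd, Ctsh, Ctsk, Ctsl, Ctss, Ctsz and Cst3. They were taken by gene symbol from an array with 19942 distinct symbols, where all 10 had a spot and 12 spots in all, and 9 of the 10 passed the filter on low intensity, as did 16113 of all genes. The samples were RNA of the left ventricle of male C57BL/6J mice that were 8 weeks old at surgery. The mice had undergone transverse aortic banding (TAB), which narrows the aortic arch and overloads the left ventricle, or a sham operation without the band. Each operation gave 1 sample 3, 5, 7, 14 and 28 days later, so that 10 samples were compared, and the number of mice behind a sample is not stated. The labels name no engineered allele and no drug beside isoflurane anaesthesia. All 10 cardiomyocyte markers searched were found on all 10 arrays. So were all 8 endothelial markers, and 11059 genes remained when probes not found on 1 or more arrays were left out. Being found is therefore only a weak check of the tissue label.

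Cathepsins are proteases named mostly for their work inside lysosomes, where they break down proteins delivered by endocytosis and autophagy, and several are also secreted and cut collagen and elastin outside the cell. Most of the family are cysteine proteases, whereas cathepsin D is an aspartic protease and cathepsin A a serine carboxypeptidase. Cystatin C, encoded by Cst3, is a secreted inhibitor that occupies the active site of cysteine cathepsins. In the heart these enzymes are known from macrophages, fibroblasts and cardiomyocytes, and they are studied for their part in matrix turnover during remodeling.

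Of the 9 genes past the filter, Ctsk, Ctss, Ctsz and Ctsh rose in TAB, Cst3 fell, and Ctsb, Ctsa, Ctsd and Ctsl did not pass the test. The test was limma on log2 normalized intensity, with the day as a block, the 5 days as replicates of an average TAB effect, and Benjamini-Hochberg adjustment over 16113 genes at 0.05. Over all genes 9.19% were called higher and 7.87% lower in TAB, against 4 and 1 of the 9 genes here. Higher genes made up 53.9% of all calls, and 67.6% with median scaling only or 66.3% with quantile normalization within each operation. The median of the mean log2 ratio was 0.47 over the 9 genes and −0.03 over all genes. Because 1 array was hybridized per operation and day, a difference on a single day has no replicate check and precision is limited by how few arrays there are. The p-values of this fit measure the spread of the TAB to sham ratio between the days. That spread includes any change of the ratio with time after surgery.

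**Figure D1:**
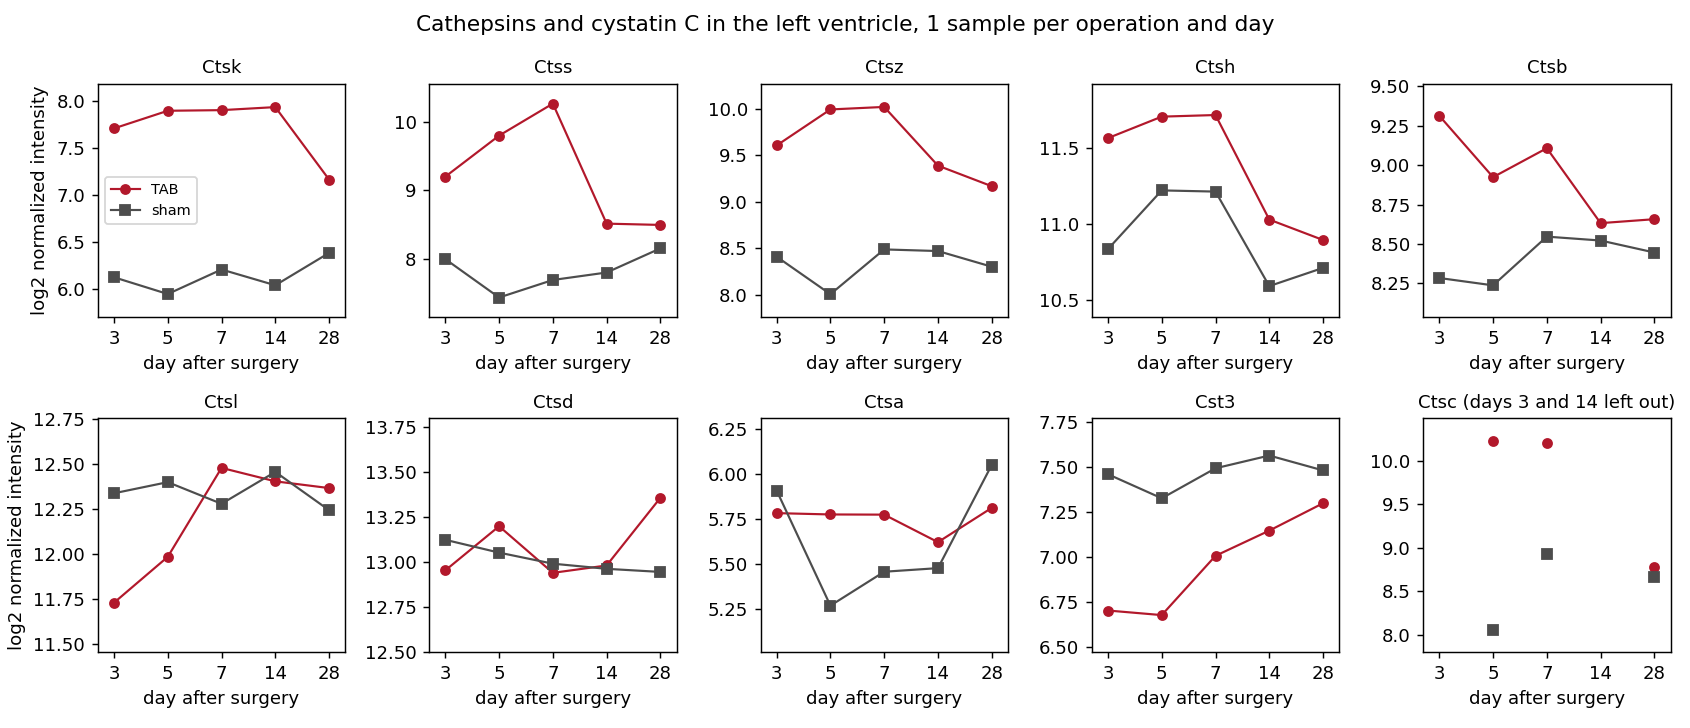
Log2 normalized intensity of each gene against the day after surgery, with 1 point per sample (red circles TAB, grey squares sham) and a separate scale in each panel. Ctsk, Ctss, Ctsz and Ctsb lie above sham in all 5 TAB samples and Cst3 below, while the lines of Ctsl, Ctsd and Ctsa cross. Ctsc is drawn for days 5, 7 and 28 from a normalization without days 3 and 14.

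Ctsk rose on average by more than any other of the 9 genes in this fit. With 50 added to the intensity, Ctss (1.27) and Ctsz (1.18) had larger mean log2 ratios than Ctsk (1.12), and without day 14 Ctss did, at 1.62. Ctsk encodes cathepsin K, the collagen-degrading protease best known from osteoclasts. Its normalized intensity in TAB was 209, 238, 239, 245 and 143 on days 3, 5, 7, 14 and 28. In sham it was 69.9, 61.8, 74.0, 65.9 and 83.6 on the same days. All 5 TAB samples were above all 5 sham samples, as were those of 9.99% of all genes, and the TAB sample of day 28 lay nearest to sham. Averaged over the days the log2 ratio was 1.58 ± 0.19 (SE, n = 5 days), a 2.99-fold difference, with a limma adjusted p of 0.0142. The widest gap between any pair of sham samples was 0.44 on the log2 scale. The spot was found on all 10 arrays but was dim, since 53.1% of the kept probes had a lower mean and the deposited detection p was under 0.05 on 0 of the 10 arrays, so that the fold and its rank among the 9 genes are approximate.

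Ctss followed a steeper course. Cathepsin S is the protease that trims the invariant chain in antigen-presenting cells and keeps its activity outside the lysosome. Its normalized intensity in TAB was 587, 889, 1228, 365 and 360, in the order of the days. In sham the values were 255, 173, 206, 223 and 284. The groups did not overlap, the TAB samples of days 5 and 7 were the highest, and those of days 14 and 28 came close to the highest sham sample, which was that of day 28. The log2 ratio reached 2.57 on day 7, a 5.95-fold difference, and was 0.34 on day 28. The mean over the days was 1.44 ± 0.37 (SE, n = 5 days), or 2.71-fold, with a limma adjusted p of 0.0464. The deposited detection p of the spot was under 0.05 on 5 TAB and 2 sham arrays, so that the fold rests on dim sham values.

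Ctsz encodes cathepsin Z, also called cathepsin X, a carboxypeptidase abundant in monocytes and macrophages. TAB samples measured 780, 1020, 1040, 671 and 575 on days 3, 5, 7, 14 and 28. Sham samples measured 340, 257, 359, 354 and 315. The lowest TAB sample, that of day 28, was still well above the highest sham sample, that of day 7. On average the log2 ratio was 1.30 ± 0.19 (SE, n = 5 days), a 2.47-fold difference, and the limma adjusted p was 0.0181. The detection p of its spot was under 0.05 on 5 TAB and 3 sham arrays. With Ctsk, Ctss and Ctsb, Ctsz made 4 of the 9 genes whose TAB samples were all above sham.

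Ctsh, the gene of the aminopeptidase cathepsin H, rose less. Its normalized intensity was 3030, 3341, 3365, 2091 and 1905 in TAB and 1828, 2388, 2375, 1545 and 1678 in sham, in the order of the days. The groups overlapped, because the TAB samples of days 14 and 28 fell below the sham samples of days 5 and 7, and both operations were higher on days 5 and 7 than on days 14 and 28. Within each day TAB was higher, with log2 ratios between 0.18 and 0.73. The mean was 0.47 ± 0.12 (SE, n = 5 days), or 1.38-fold, and the adjusted p of limma was 0.0432. The call rested on the pairing by day: without the block the adjusted p was 0.130, the highest of a range from 0.00895 to 0.130 over 11 alternatives, and the exact permutation test of 5 against 5 samples gave a two-sided p of 0.0794.

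Ctsb, the gene of cathepsin B, the most widely studied lysosomal cysteine protease, was measured by a pair of spots. On the spot with the larger ratios the normalized intensity was 636, 486, 552, 397 and 404 in TAB and 312, 302, 374, 368 and 349 in sham. The groups did not overlap, although the TAB samples of days 14 and 28 were within the sham range of 0.31 on the log2 scale from the sham samples of those days. The mean log2 ratio was 0.52 ± 0.16 (SE, n = 5 days), with a 95% interval from 0.13 to 0.91 and a limma adjusted p of 0.0740, so it was not called. On the other spot, which was brighter, the mean log2 ratio was 0.47 ± 0.12, with an adjusted p of 0.0521 in a limma fit over all 19976 kept probes. With the brightest spot of each gene in place of the one with the larger ratios, Ctsb passed at an adjusted p of 0.0428, within a range from 0.0120 to 0.123 over the 11 alternatives, 7 of which called it.

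Cst3 moved in the opposite direction to Ctsk, Ctss, Ctsz and Ctsh. Its normalized intensity was 104, 102, 129, 142 and 157 in TAB on days 3, 5, 7, 14 and 28, and 176, 160, 180, 189 and 179 in sham. Every TAB sample was below every sham sample, as was the case for 7.76% of all genes, and the gap was widest on day 3 and narrowest on day 28. The log2 ratio was −0.76 on day 3 and −0.18 on day 28. Its mean was −0.50 ± 0.12 (SE, n = 5 days), 1.41-fold lower in TAB, with a limma adjusted p of 0.0421. The spot was found on all 10 arrays but was dim, and the deposited detection p was under 0.05 on 2 arrays, both of sham. It was under 0.05 for 38.6% and 38.0% of all spots on the sham arrays of days 7 and 28, against 18.8% to 23.5% on the other 8 arrays. With median scaling only the mean log2 ratio was −0.44 with an adjusted p of 0.0656, and with quantile normalization within each operation it was −0.44 with an adjusted p of 0.0573, so that the call was lost under both, in a range from 0.0121 to 0.0795 over the 11 alternatives.

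Ctsl, Ctsd and Ctsa showed no difference past the threshold. Cathepsin L is a broad lysosomal cysteine protease whose loss in mice is known to lead to dilated hearts, and its brighter spot measured 3391, 4047, 5701, 5414 and 5275 in TAB and 5170, 5397, 4965, 5614 and 4844 in sham. The TAB samples of days 3 and 5 were below all sham samples and that of day 7 above all of them. The mean log2 ratio of Ctsl was −0.15 with a 95% interval from −0.53 to 0.23 and a limma adjusted p of 0.530, and the dimmer spot gave −0.06. Ctsd was the gene of the aspartic protease, and its normalized intensity ran from 7865 on day 7 to 10503 on day 28 in TAB and from 7893 to 8933 in sham. TAB and sham overlapped, and the mean log2 ratio of Ctsd was 0.07 with a 95% interval from −0.22 to 0.37 and a limma adjusted p of 0.714. Ctsa, the carboxypeptidase that also protects neuraminidase and beta-galactosidase in the lysosome, was the dimmest, at 49.2 to 56.1 in TAB and 38.5 to 66.2 in sham, and its spot was found on 9 of 10 arrays, with a detection p under 0.05 on 0. For Ctsa the mean log2 ratio was 0.12 with a 95% interval from −0.23 to 0.47 and a limma adjusted p of 0.589.

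Ctsc, the gene of cathepsin C, which activates the granule proteases of neutrophils and mast cells, did not pass the filter because its intensity was below 1 on a single array. The raw intensity of its spot was −5 on the TAB array of day 3 and 3 on that of day 14, and both of these arrays carry the flag read here as a spot that was not found. On the other TAB arrays (days 5, 7 and 28) it was 1255, 1248 and 524. The sham arrays gave 455, 250, 416, 443 and 478. Ctsc was therefore measured in 3 of 5 TAB and 5 of 5 sham samples, and no level can be given for TAB on days 3 and 14. Of the 4848 spots with a median raw intensity of at least 400, 26 were not found on at least 1 array, and only the spot of Ctsc was missing on exactly these arrays. When days 3 and 14 were left out before normalization, a choice made after its values were seen, the log2 ratios of days 5, 7 and 28 were 2.17, 1.27 and 0.12. The mean over these 3 days was 1.19 ± 0.44 (SE), with a limma adjusted p of 0.221, and limma called 0 of 16620 genes in that fit, where 3851 had an unadjusted p under 0.05.

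**Figure D2:**
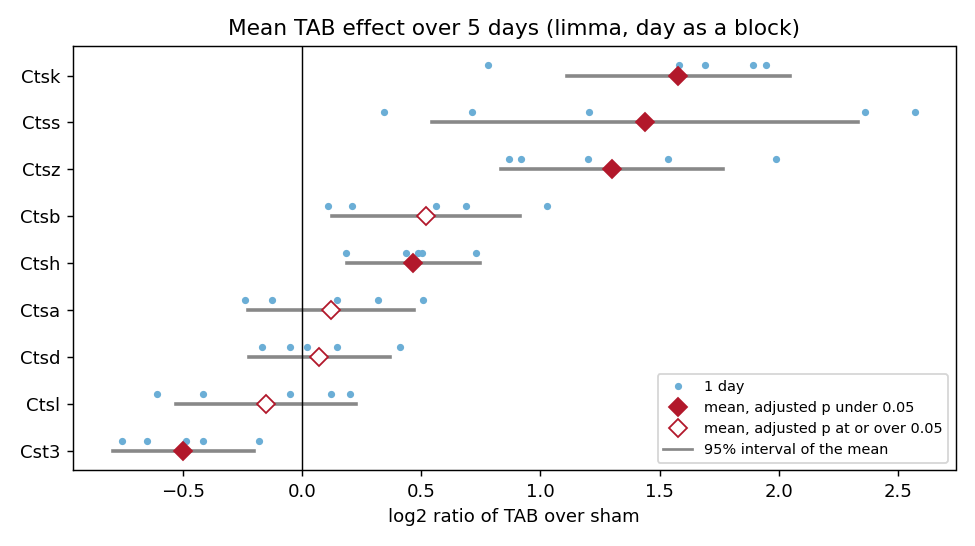
Mean log2 ratio of TAB over sham for the 9 genes past the filter (diamonds, filled where the limma adjusted p was under 0.05), with the 95% interval as a grey line and the 5 days as blue points. Ctsk at 1.58, Ctss at 1.44 and Ctsz at 1.30 stand to the right, the interval of Ctss is the widest, and Cst3 at −0.50 is to the left of 0.

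TAB was above sham on all 5 days for 5 of the 9 genes, namely Ctsb, Ctsh, Ctsk, Ctss and Ctsz, and below on all 5 days for Cst3. Over all genes this held for 17.3% above and 17.5% below. The exact permutation test over all arrangements of 5 TAB and 5 sham samples gave a two-sided p of 0.00794, the smallest it can give, for Ctsb, Ctsk, Ctss, Ctsz and Cst3. Every gene whose groups do not overlap gets this unadjusted p. Over all genes these were 9.99% with TAB above sham and 7.76% with TAB below. The exact sign-flip test over the 5 day pairs cannot go below 0.0625, which Ctsh reached as well.

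The calls of the average effect depended on single days. Without day 3, day 5 or day 7 none of the 9 genes was called by limma: the adjusted p of Ctsk was then 0.0649, 0.0551 and 0.0676, and that of Ctsz 0.0714, 0.0551 and 0.0774. Without day 14 only Ctsk and Ctsz were called, and without day 28 all 5 calls stood. Calls over all genes fell from 2749 to 30, 98 and 22 without days 3, 5 and 7, and to 947 without day 14. The mean log2 ratio of the 5 called genes kept its sign in each case, between 1.49 and 1.78 for Ctsk, 1.16 and 1.71 for Ctss, 1.13 and 1.41 for Ctsz, 0.40 and 0.54 for Ctsh, and −0.58 and −0.43 for Cst3.

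On single days a gene was called DE if its log2 ratio lay over 2 SDs of all genes of that day away from 0. On day 3 no gene of the 9 exceeded the threshold of 1.78, while 3.1% of all genes did in the higher direction, and Ctsk came closest at 1.58. On day 5 Ctss at 2.36, Ctsz at 1.99 and Ctsk at 1.95 exceeded 1.93, as did 4.09% of all genes. Ctsk and Ctsz passed by a narrow margin. Day 7 had Ctss alone, at 2.57 against a threshold of 1.75 passed by 4.08%, with Ctsk at 1.69 just short of it. Day 14 had Ctsk alone, at 1.89 against 1.48, passed by 3.39% of genes. On day 28 the threshold of 1.38, passed by 3.41%, was reached by none, and the highest was Ctsz at 0.87. No p-value belongs to these calls.

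**Figure D3:**
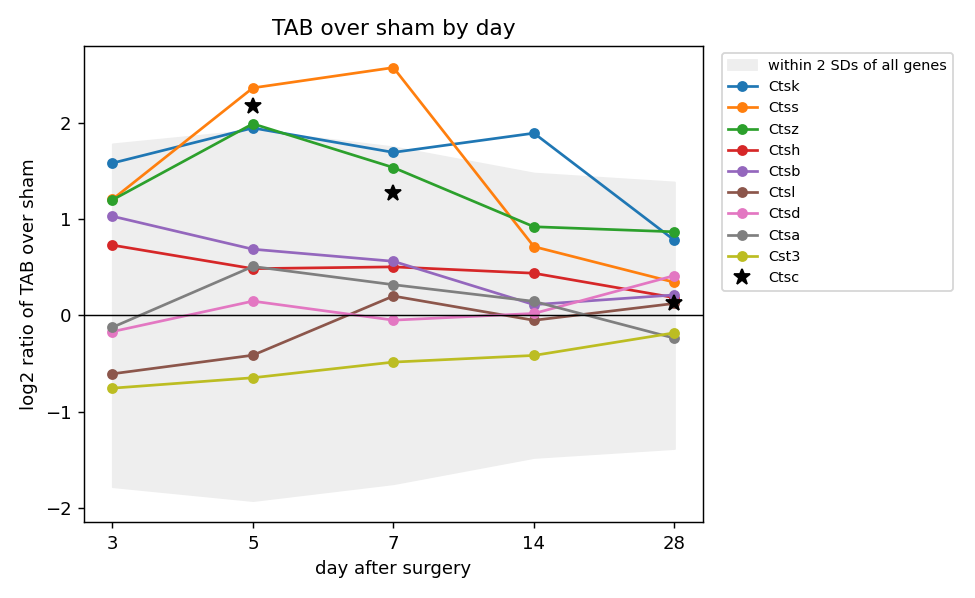
Log2 ratio of TAB over sham against the day after surgery, 1 line per gene, with the band within 2 SDs of all genes of a day shaded and Ctsc as stars from the normalization without days 3 and 14. Ctss leaves the band on days 5 and 7 with 2.36 and 2.57, Ctsk on days 5 and 14 and Ctsz on day 5, and Cst3 approaches 0 from −0.76 on day 3 to −0.18 on day 28.

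The courses differed in timing by description. The log2 ratio of Ctsk stayed between 1.58 and 1.95 through day 14 and was 0.78 on day 28. That of Ctss dropped from 2.57 on day 7 to 0.71 on day 14, and that of Ctsb was highest on day 3, at 1.03. The mean of days 14 and 28 minus that of days 3, 5 and 7 was tested with limma on the log2 ratios. No member passed: the difference was −1.52 ± 0.47 (SE) for Ctss, with an unadjusted p of 0.0233 and an adjusted p of 0.412, and −0.60 ± 0.23 for Ctsb, with an unadjusted p of 0.0470 and an adjusted p of 0.452. Limma called 0 of 16113 genes in this comparison, where 1766 had an unadjusted p under 0.05.

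Ctsk and Ctss are neighbouring protein-coding genes in the RefSeq annotation of GRCm38.p6, and both rose. The 250 bases before the annotated start of these genes are printed below with those of Ctsd and Ctsl, which did not pass the test, because they hold different short motifs. Capitals mark CACGTG, the E-box core read by the TFEB family of lysosomal gene activators, and GAGGAA or its reverse complement TTCCTC, the core of the box bound by the myeloid factor PU.1. Sequences are from RefSeq, 5′ to 3′ on the strand of the gene.
Ctsk, chr3:95498960-95499209, plus strand: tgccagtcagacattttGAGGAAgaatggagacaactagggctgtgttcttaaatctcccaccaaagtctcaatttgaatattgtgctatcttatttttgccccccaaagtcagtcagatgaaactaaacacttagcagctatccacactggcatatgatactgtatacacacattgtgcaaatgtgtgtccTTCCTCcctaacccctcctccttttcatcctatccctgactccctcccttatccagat
Ctss, chr3:95526536-95526785, plus strand: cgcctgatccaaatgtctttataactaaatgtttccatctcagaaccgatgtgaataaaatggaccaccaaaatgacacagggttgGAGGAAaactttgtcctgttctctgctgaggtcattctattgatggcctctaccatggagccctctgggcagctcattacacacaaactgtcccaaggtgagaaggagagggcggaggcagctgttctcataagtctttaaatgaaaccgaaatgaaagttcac
Ctsd, chr7:142387828-142388077, minus strand: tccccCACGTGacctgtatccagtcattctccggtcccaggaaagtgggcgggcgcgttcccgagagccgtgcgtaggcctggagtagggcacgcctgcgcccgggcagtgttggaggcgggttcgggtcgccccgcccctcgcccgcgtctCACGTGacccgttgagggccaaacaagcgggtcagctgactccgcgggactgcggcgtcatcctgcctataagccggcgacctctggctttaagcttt
Ctsl, chr13:64370521-64370770, minus strand: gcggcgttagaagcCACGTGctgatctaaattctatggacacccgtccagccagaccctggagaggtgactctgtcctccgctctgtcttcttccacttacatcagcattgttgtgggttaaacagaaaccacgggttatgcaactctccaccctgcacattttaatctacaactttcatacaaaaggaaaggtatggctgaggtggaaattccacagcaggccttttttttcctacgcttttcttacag
GAGGAA or TTCCTC stood 233 and 58 bases before the start of Ctsk and 164 before that of Ctss, counted to the first base of the motif. CACGTG stood 245 and 98 bases before the start of Ctsd and 236 before that of Ctsl. A window was at hand for 8 of the 10 genes, and Ctsa had 2, which makes 9 windows. CACGTG was in 3 of the 9, those of Ctsd and Ctsl and 1 of the 2 of Ctsa, and in 6.02% of 32851 windows of the same length. GAGGAA or TTCCTC was in 4 of the 9, those of Ctsk, Ctss, Ctsc and Cst3, and in 23.3% of all windows. Among the genes with a window, Ctsk and Ctss, which rose, and Cst3, which fell, thus hold the latter motif, and Ctsz, which rose, holds neither. Windows were searched on both strands, and the motifs do not overlap each other. A match is a description of these letters and not of binding.

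Other lysosomal genes were taken from lists to set the 10 genes in their pathway, and their counts stand beside 9.19% of all genes called higher and 7.87% called lower. With lists of 10 and 13 genes, a count of 1 or 2 is near that background. Among 14 other cathepsins, 5 passed the filter and 0 were called by limma, with 2 of the 5 at an unadjusted p under 0.05 (35.7% of all genes were), and the median of their mean log2 ratios was −0.30. The values farthest from 0 among those found on all arrays were −0.65 for Cts8-ps, annotated as a pseudogene of the rodent placental group, and −0.40 for Ctse, an aspartic protease of the gut and immune cells. Of the other cystatins and stefins, relatives of Cst3, 13 passed the filter, and 2 were called higher and 1 lower, with a median of 0.12. Cstb, the cytosolic inhibitor stefin B, rose by 0.90 ± 0.22 (SE, n = 5 days; limma adjusted p of 0.0422) and was found on all arrays. Cst13 and Fetub were called too, but their spots were found on only 4 and 2 of the 10 arrays.

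Of 37 other lysosomal hydrolases past the filter, 11 were called higher and 1 lower, with a median log2 ratio of 0.28. Gusb, the beta-glucuronidase, rose with a mean log2 ratio of 1.21, and Lgmn, the asparaginyl endopeptidase that processes several cathepsins, with 1.05. Gaa, the glycogen-degrading alpha-glucosidase, was the gene that fell, at −0.85. Of 25 lysosomal membrane and proton pump genes, 6 were called higher and 1 lower, with a median of 0.11. Laptm5, a lysosomal membrane protein of leukocytes, rose at 1.59, Cd63, a tetraspanin of late endosomes, at 0.68, and Atp6v1h, a subunit of the proton pump, at 0.59. Of the 10 sorting and transcription genes, 2 were called higher and 1 lower, with a median of 0.10. Grn, the gene of progranulin, rose at 1.01 and Tfe3, of the TFEB family, at 0.50, while Mitf of the same family fell, at −0.76. These values are mean log2 ratios over 5 days from the same limma fit.

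**Figure D4:**
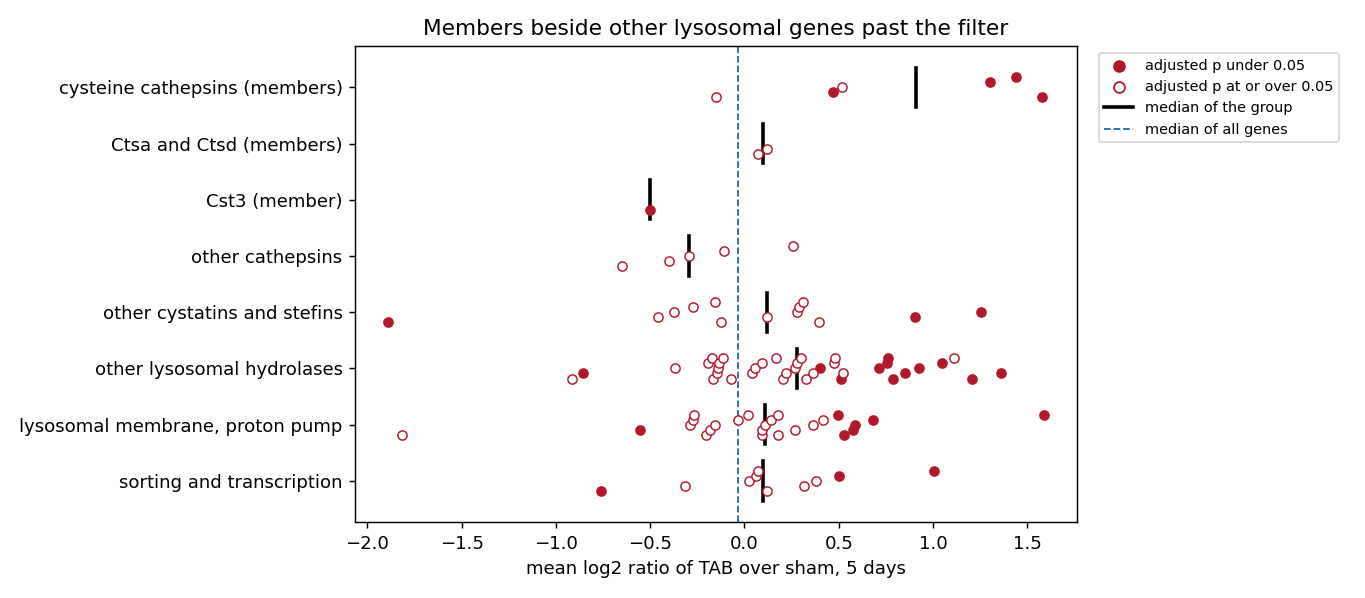
Mean log2 ratio of TAB over sham for the 9 genes and for other lysosomal genes past the filter, 1 point per gene, filled where the limma adjusted p was under 0.05, with the group median as a black bar. The 6 cysteine cathepsins have a median of 0.91, the other lysosomal hydrolases one of 0.28, and all genes one of −0.03 (dashed line).

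Most markers of macrophages and monocytes and of fibroblasts rose, as did Ctsk, Ctss and Ctsz, while those of other cell types mostly were not called. Of 15 macrophage and monocyte markers past the filter 13 were called higher and 0 lower, and their summed intensity was 7452 to 9261 in sham. In TAB the sum was 25523, 30921, 26658, 15930 and 13297 in the order of the days, highest on the same early days on which Ctss, Ctsz and Ctsh were highest. Of 8 fibroblast markers 6 were called higher, with sums of 20194 to 23414 in sham. In TAB the sums of the fibroblast markers were 39542, 46615, 48169, 44851 and 29985 on days 3, 5, 7, 14 and 28. Day 28 was the lowest, as it was for Ctsk, Ctss, Ctsz, Ctsh and the macrophage sum, so that these courses do not pair a cathepsin with a cell type. For the 10 cardiomyocyte markers 0 were called by limma, with 2 at an unadjusted p under 0.05, and the sums were 301121 to 330833 in sham and 291841 to 311551 in TAB. The spot of Myl2 in this sum lay at or near the upper limit of the scanner on all arrays, so that differences of it cannot be read. Of 7 neutrophil markers 1, S100a8, was called higher with a spot found on no array. Of 8 lymphocyte markers 1, Cd3e, was called lower, and of 8 endothelial markers 0 were called (1 at an unadjusted limma p under 0.05). Of 4 smooth muscle markers 1, Tagln, was called higher at a mean log2 ratio of 2.69, with a spot found on only 4 of the 10 arrays. In bulk tissue, more cells of a type and more RNA per cell cannot be told apart, and the part of these cells in the values of the cathepsins was not tested.

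**Figure D5:**
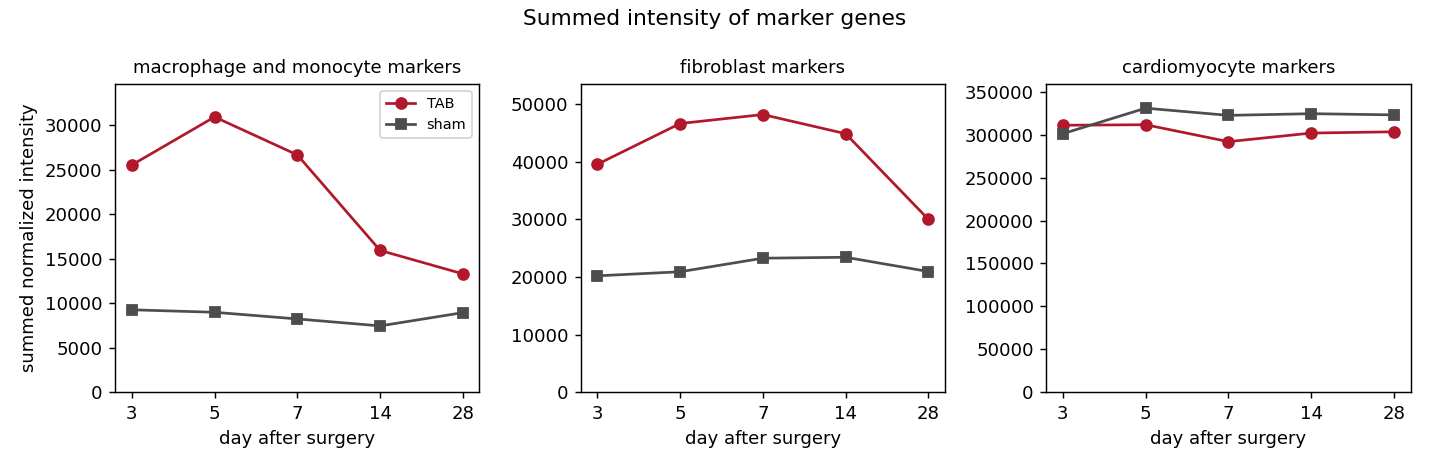
Summed normalized intensity of macrophage and monocyte, fibroblast and cardiomyocyte markers against the day after surgery, 1 point per sample (red TAB, grey sham). The macrophage sum in TAB is highest on day 5 at 30921 and lowest on day 28 at 13297, above all sham samples throughout, while the cardiomyocyte sum in TAB is below that of sham on 4 of 5 days and ranges overlap.

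The genes whose log2 intensity ran most like that of each member over the 10 samples were named by Pearson's r among 10527 genes found on all arrays, as a description with no test. All 10 points come from the same arrays and carry the difference between TAB and sham. For Ctsk they were Ltbp2, a latent TGF-beta binding protein, with r = 0.992, and Col14a1, a collagen chain, with r = 0.991. For Ctss they were Cfb, complement factor B, with r = 0.989, and Alox5ap, which serves leukotriene synthesis, with r = 0.984. Ctsz ran closest to Pdpn, podoplanin, with r = 0.994, and Vcan, the proteoglycan versican, with r = 0.990. Cst3 ran closest to Tmem65 with r = 0.992 and Ndufb2, a subunit of respiratory complex I, with r = 0.980. For Ctsb the closest were Rps21, a ribosomal protein gene, and Kctd5, both with r = 0.982. The closest gene had a lower r for Ctsl (Prpf38a, 0.955), Ctsh (Dapk3, 0.941), Ctsd (Cdc42se2, 0.871) and Ctsa (N4bp1, 0.836).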

How the data were processed

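mRNA was labelled with Cy5 and hybridized to the Mouse Whole Genome OneArray, a 1-colour oligonucleotide array, scanned with an Agilent scanner and read with GenePix 4.1. The authors deposited raw intensity per spot, with a background subtracted by a method not given in the sources used here, a flag, and a p-value for detection. The deposited flag of −50 was read as a spot not found, and the deposited detection p-value was used for no call. Median raw intensity per array was 34 to 57, and 40.2% to 47.3% of spots were not found.

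Arrays were scaled to a common median, and the 19976 of 26423 probes at 1 or above in every sample were kept, brought to 1 distribution by quantile normalization (the median at every rank) and put on the log2 scale. Of several probes, a gene took the one whose absolute log2 ratios summed highest. TAB and sham were compared with limma 3.58.1 (R 4.3.3), with the day as a block because the study's ratios pair the samples by day. The deviations of same-day samples correlated with r between −0.0165 and 0.113. Exact tests, summaries and plots used scipy 1.17.1, numpy 2.4.6, matplotlib 3.10.9 and pandas 2.3.3 in Python 3.11.15. The limma script was tested on simulated data. The TAB sample of day 14 has 15 days in 1 label and 14 in its title, and was used as day 14.

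The 10 genes, the lists and the motifs were chosen with earlier results of these data known. All 10 genes and every spot were named, and of each list the 3 called genes with the largest mean log2 ratio, or else the 2 largest found on all arrays. 1 gene named by this rule is not reported here. Alternatives were median scaling, quantile normalization within operations or to rank means, 50 added to the intensity, 2 filters on dim spots, values below 1 set to 1, other choices of spot, no block, trend and robust estimation, and each day left out. Days 3 and 14 were left out together after seeing the data.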

Additional observations from a re-analysis of the deposited data

Results flagged for a closer look

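1 of the values stood apart within its group. The TAB sample of day 14 was the lowest of the 5 TAB samples of Ctsa, at a normalized intensity of 49.2, and its gap to the next sample was 0.803 of the range of the group on the log2 scale. The other TAB samples lay between 54.7 and 56.1, and sham ranged from 38.5 to 66.2. 22 groups of samples were examined in this way, and chance flags about 1 in 20.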

How the results depend on the processing

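Of the 4 genes called higher and the 1 called lower, Ctsk and Ctsz stood under all 11 alternatives to the processing other than leaving out days, Ctss under 10, Ctsh under 9 and Cst3 under 8. The count of lower calls went to 0 with median scaling only, with quantile normalization within each operation and with values below 1 set to 1, where higher calls were 2. Calls over all genes fell too. Lower calls went from 1268 of 16113 genes to 855 and 950 of 16113 and 218 of 19942 in these settings. Higher calls over all genes were 1481 of 16113 in the main fit and 459 of 19942 with values below 1 set to 1. With a day left out, higher calls ranged from 0 to 4 and lower calls from 0 to 1, and with days 3 and 14 both left out they were 0 and 0. The mean log2 ratio of Ctsd, never called, ranged from −0.014 to 0.13 with a day left out. Without the day as a block Ctsh was lost (adjusted p of 0.130) and Ctsb was gained (0.0318), so the counts did not move. The 5 single-day calls became 11 at an absolute log2 ratio of at least 1, 12 with 50 added, 8 with spots not found on an array or the lowest tertile left out, and 2 with values below 1 set to 1. The share of all genes called on single days was taken only in the main setting, so these changes cannot be told from changes over all genes. The median log2 ratio over the genes lay between 0.29, with values below 1 set to 1 so that Ctsc was included, and 0.61 with median scaling only, and no gene passed the early against late test under any of 9 alternatives. Dim spots limit Ctsk, Cst3 and Ctsa most. The causes were not tested.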
